A study of Onthophagus taurus with 15 samples.

Results

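Of 3840 spotted cDNA clones of the horned dung beetle Onthophagus taurus, 101 had a similarly low ratio in head horn, thoracic horn and legs when each was set against dorsal abdominal epithelium. They were chosen from the 3182 clones with a value on all 15 arrays, of which they make up 3.17%. For each tissue, the mean of replicates A, C and E and the mean of replicates B and D were averaged to give 1 tissue value. A clone was taken when all 3 tissue values were -1 or less on the log2 scale (at least 2-fold) and the largest minus the smallest was under 0.8. The tissue values that chose the clones, and the differences between them, are therefore described below, and nothing is read from tests on them.

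The arrays carried RNA of 3 appendage tissues of large males, taken as pupae no more than 24 h after pupation from a laboratory colony. Head horn, thoracic horn and legs had 5 arrays each, lettered A to E, and on every array the other dye carried dorsal abdominal epithelium. Each RNA sample pooled tissue of 4 pupae, and the same animals gave both samples hybridised together. The appendage was labelled with Cy3 on letters A, C and E and with Cy5 on letters B and D, which is called the dye layout here. No genotype, agent or treatment differed between the groups.

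Beetle horns are outgrowths of the epidermis and its cuticle on head and prothorax, and they carry no joints or muscles of their own. In O. taurus the large males keep a pair of head horns as adults, whereas the thoracic horn of the pupa is removed before the adult emerges. Legs are jointed limbs, patterned by genes such as Distal-less and homothorax, some of which are also active in horns. The dorsal abdominal epidermis forms no appendage, and it was the common partner of all 3 tissues. A ratio that is low in all 3 appendages therefore cannot be told apart from a level particular to abdominal epithelium. In such bulk samples, fewer cells of a type and less RNA per cell cannot be told apart either.

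The deposited values were log ratios of both channels, read as log2. A negative value is likely to mean a lower level in the appendage, because the appendage comes first in the sample titles and in the design text, but the files do not settle this. With the opposite direction, the 101 clones would be higher in all 3 appendages, and no size or adjusted p would change. Over all clones, the correlation within a tissue was 0.249 to 0.498 between arrays of opposite dye layout and 0.603 to 0.722 where the layout was the same, so no array was turned. Arrays held 3511 to 3808 clone values, with medians from -0.07 to 0.15. None of the clone IDs (0 of 3840) matched the 16956 genes of the supplied gene table, so no gene, pathway or sequence can be named, and the tissue labels could not be checked against marker genes.

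The 101 clones had median tissue values of -1.75 (head horn), -1.82 (thoracic horn) and -1.87 (legs), where the 3182 complete clones had 0.03, 0.02 and 0.07. Averaged over the tissues, single clones ran from -3.80 (14.0-fold) to -1.09 (2.13-fold), with a median of -1.78 (3.44-fold). The mean was -3 or less in 17 clones, between -3 and -2 in 24, and above -2 in 60. Of the 1515 values of these clones, 1512 were negative and 1346 were -1 or less. All 15 values were negative in 99 clones, and all 15 were -1 or less in 49. The exceptions were OtP007-B04, at 0.10 on array A of legs, and OtL005-H06, which reached 0.36 on array E of head horn.

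**Figure D1:**
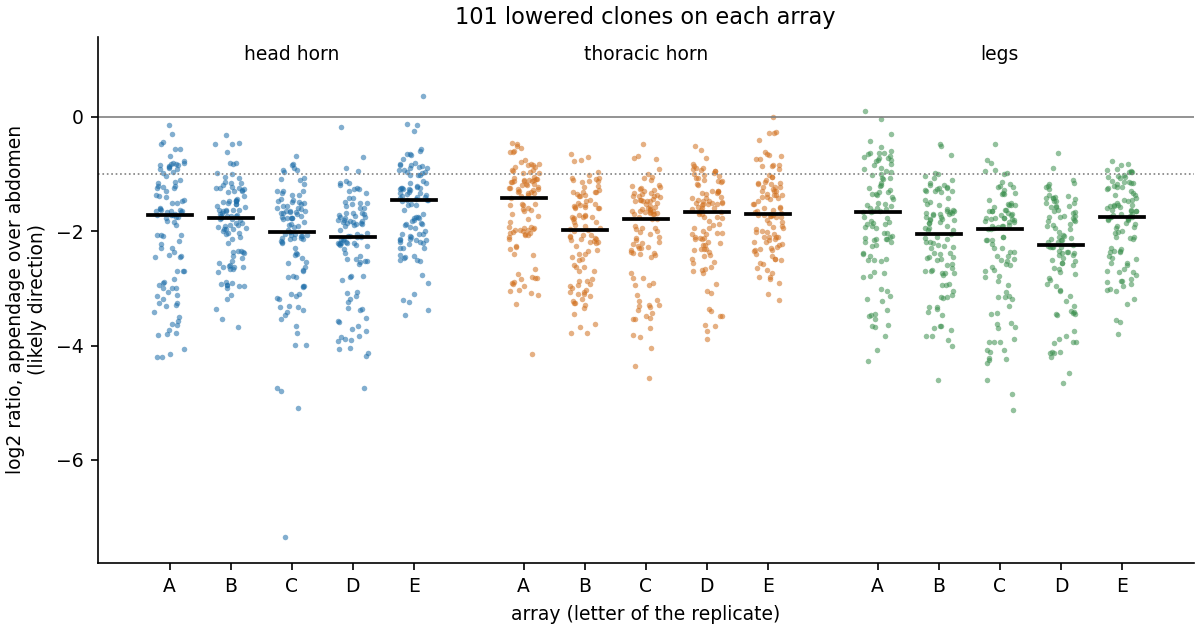
Log2 ratio (appendage over abdomen, the likely direction) of the 101 lowered clones on each of the 15 arrays, by tissue and letter. Points are clones, black bars the median of an array, and the dotted line marks -1; the medians lie between -2.24 (legs, D) and -1.42 (thoracic horn, A).

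The median of the 101 clones differed between arrays of 1 tissue. In head horn it was -1.72 on A, -1.77 on B, -2.01 on C, -2.10 on D and -1.46 on E. In thoracic horn it was -1.42 on A, -1.98 on B, -1.79 on C, -1.66 on D and -1.69 on E. In legs it was -1.66 on A, -2.06 on B, -1.97 on C, -2.24 on D and -1.75 on E. The ranges of the 3 tissues overlapped, and the least negative median fell on E in head horn and on A in the other tissues. The number of the 101 clones at -1 or less ran from 77 on array A of legs to 99 on array D of legs. Over the 3182 complete clones, 6.73% to 13.8% were at -1 or less on an array.

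The 8 lowest clones were 9.95-fold to 14.0-fold below abdomen in the average of the 3 tissues. OtL006-A08 was lowest, with tissue values of -3.63 (head horn), -3.67 (thoracic horn) and -4.10 (legs). Its 5 arrays, A to E, read -4.20, -2.91, -4.75, -4.13 and -2.30 in head horn. They read -4.14, -3.62, -4.57, -3.36 and -2.83 in thoracic horn, and -4.27, -3.84, -5.13, -3.94 and -3.56 in legs. Array C was the lowest in every tissue and array E the highest, and the 3 tissues overlapped widely.

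OtL015-C02 followed, with -4.19, -2.95, -2.78, -3.92 and -3.21 on arrays A to E of head horn. In thoracic horn it stood at -2.91, -3.67, -3.48, -3.66 and -3.20, and in legs at -4.07, -3.66, -3.93, -4.48 and -3.59. The legs arrays lay lower on average, with a tissue value of -3.97 against -3.42 (head horn) and -3.43 (thoracic horn), and their range overlapped that of both horns. OtL001-F08 had tissue values of -3.35, -3.24 and -3.80 in head horn, thoracic horn and legs, with SDs of 0.38, 0.36 and 0.51 (n = 5 arrays each). OtL005-F06 had -3.24, -3.31 and -3.67 and OtL013-C03 had -3.25, -3.21 and -3.66 in the same order. In these 5 clones legs were the lowest tissue and both horns lay within 0.11 of each other.

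OtP014-B04 had its lowest tissue value in head horn, at -3.60, with -3.10 in thoracic horn and -3.38 in legs. OtP007-F12 averaged 10.8-fold over the tissues but was spread widely between arrays. Its values on arrays A to E were -1.40, -4.61, -4.23, -4.66 and -2.83 in legs and -1.24, -3.45, -3.82, -3.88 and -2.68 in thoracic horn. Array A was the highest in both of these tissues, and E was the highest in head horn, at -2.53. OtL009-D01 read -3.25, -2.99, -5.09, -3.35 and -2.15 in head horn, where array C lay 1.74 below the next lowest.

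The 3 least changed clones were OtP001-E09, OtL009-A09 and OtL018-C04, at 2.23-fold, 2.21-fold and 2.13-fold in the average of the 3 tissues. OtL018-C04 read -0.86, -0.81, -2.20, -0.90 and -0.61 on arrays A to E of head horn, -0.85, -1.13, -1.79, -0.94 and -0.65 of thoracic horn, and -1.02, -1.04, -1.72, -1.17 and -0.97 of legs. Its array C was the lowest letter in each tissue, and its gap to the next was beyond Dixon's limit (0.71 of the range of 5 arrays) in head horn and legs only. OtL009-A09 was more even, between -1.51 and -0.67 on all 15 arrays.

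**Figure D2:**
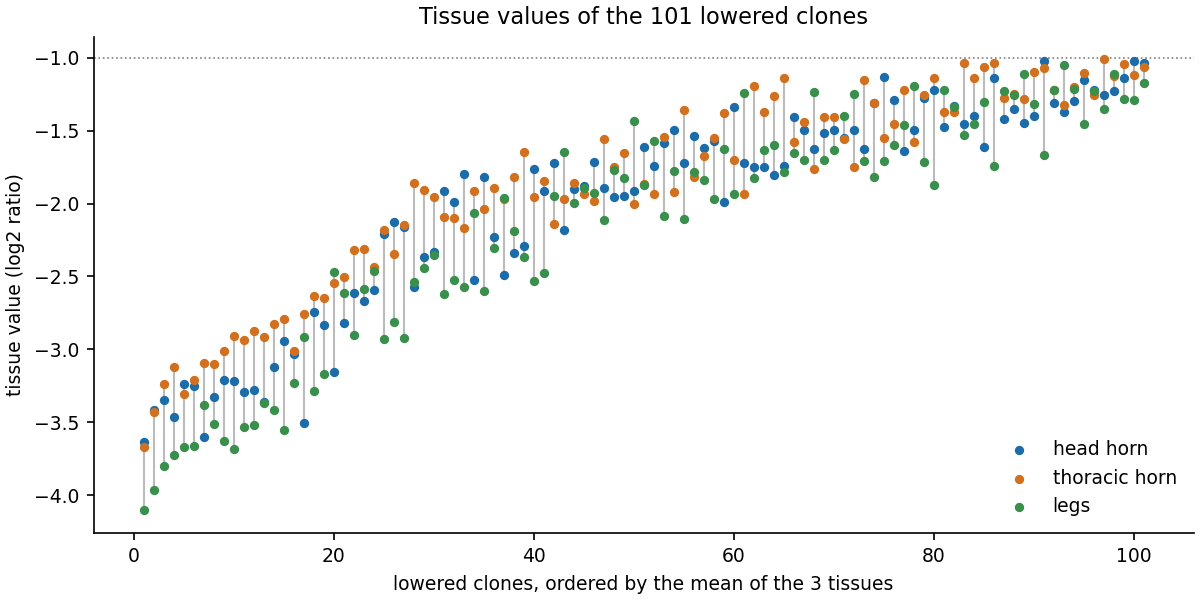
Tissue values (log2 ratio) of the 101 lowered clones, ordered from the lowest mean of the 3 tissues, with a grey line from the lowest to the highest tissue. The values run from -4.10 (OtL006-A08, legs) up to the limit of -1 (dotted), and legs are the lowest tissue in 60 clones.

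How far apart the tissues may lie was set by the choice, so the following is a description. The largest minus the smallest tissue value had a median of 0.49, was under 0.2 in 12 clones and under 0.4 in 39. Legs were the lowest tissue in 60 of the 101 clones, head horn in 27 and thoracic horn in 14. Thoracic horn was the highest tissue in 60, head horn in 26 and legs in 15. Among the 45 clones with all 3 values at -1 or less and a wider difference, legs were the lowest in 37 and thoracic horn the highest in 32. Over all 3182 complete clones legs were the lowest in 1226 and the highest in 1424. Head horn was the lowest in 895 and the highest in 812 of them, and thoracic horn the lowest in 1061 and the highest in 946.

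The most even clone was OtP004-C06, at -1.22 (head horn), -1.26 (thoracic horn) and -1.23 (legs). It read -0.68, -1.52, -1.11, -1.51 and -0.98 on arrays A to E of head horn, -0.79, -1.72, -1.11, -1.33 and -1.06 of thoracic horn, and -0.85, -1.61, -1.01, -1.51 and -0.85 of legs. Within a letter the tissues lay close together, and letters B and D were the lowest in each tissue. OtL016-C04 (-1.33, -1.37 and -1.34) and OtP003-C01 (-1.88, -1.93 and -1.89 in head horn, thoracic horn and legs) were next.

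The widest differences inside the limit of 0.8 were those of OtL017-D09 (0.78), OtL009-D03 (0.78) and OtL019-B08 (0.77), each with legs lowest. OtL017-D09 stood at -1.82 (head horn), -2.04 (thoracic horn) and -2.60 (legs). Just outside were OtL008-G12 (0.81), OtL008-G06 (0.84) and OtP020-H11 (0.86), also with legs lowest. OtL008-G06 stood at -1.66, -1.74 and -2.50 in the same order. At the level limit, OtL012-H09 and OtL006-G10 were left out with -0.997 and -0.996 in legs, and OtL020-H11 with -0.993 in thoracic horn. In 20 of the 101 clones the highest tissue value lay between -1 and -1.2, and in 27 the difference was 0.6 or more, so membership near the limits depends on small amounts.

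For each of 3777 clones, limma fitted the values of all 15 arrays. The model had a coefficient for each tissue and 1 layout term for letters A, C and E minus letters B and D, and a clone is called when its adjusted p is under 0.05 (Benjamini-Hochberg). All 101 clones were among the 3777. The SE of their tissue coefficients had a median of 0.19 and ran from 0.09 to 0.61. Against abdomen, all 101 were called negative in each tissue, where 18.9% (head horn), 17.3% (thoracic horn) and 17.6% (legs) of the 3777 clones were. The choice used these contrasts, so nothing is read from that count.

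Between tissues, none of the 101 clones was called for head horn minus thoracic horn (background 0.874%), 1 for head horn minus legs (6.46%) and 4 for thoracic horn minus legs (11.0%). The choice capped these differences too, so nothing is read from these counts or from the calls that follow. With the letter as a random block, which pairs arrays of the same letter, the counts were 2 (background 2.67%), 12 (19.5%) and 19 (25.1%). Legs lay lower in 11 of the 12 (9.24% of all clones) and in 17 of the 19 (11.5%). The 4 clones called for thoracic horn minus legs are named after their values were seen, and legs lay lower in each. OtL013-B07 stood at -2.18 in thoracic horn and -2.93 in legs and was the clone also called for head horn minus legs, with -2.21 in head horn. OtP016-D05 stood at -1.36 and -2.11, OtL002-C10 at -1.19 and -1.82 and OtL016-C01 at -1.14 and -1.79 in thoracic horn and legs.

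Values that had no part in a choice were obtained by applying the same limits to letters A, C and E alone and reading letters B and D. This chose 86 clones, of which 74 are among the 101 (86.0% of the 86 and 73.3% of the 101). Letters A, C and E also entered the choice of the 101, so this overlap is partly built in. On B and D the medians of the 86 were -1.97 (head horn), -1.87 (thoracic horn) and -2.21 (legs), and on the letters that chose them -1.77, -1.67 and -1.85. The medians of all 3182 complete clones on B and D were 0.03, 0.04 and 0.09. In a limma fit to the B and D arrays alone, 78 of the 86 were called negative for head horn, 75 for thoracic horn and 82 in the legs. The background over 3252 clones was 12.9%, 9.26% and 12.4%. In all 3 tissues together 75 of the 86 were called, where 7.01% of the clones were. On B and D, 85 of the 86 were negative in all 3 tissues and 71 were at -1 or less in all 3, which held for 5.44% of the complete clones.

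**Figure D3:**
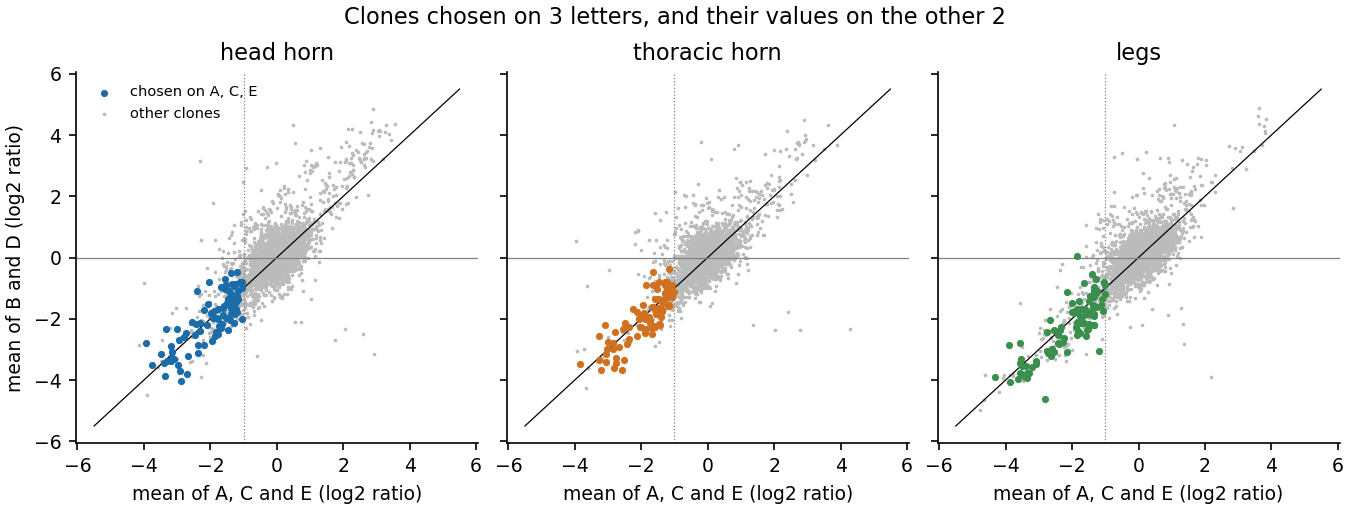
Mean of letters B and D against the mean of letters A, C and E (log2 ratio) for head horn, thoracic horn and legs. Coloured points are the 86 clones chosen on A, C and E alone, grey points the other complete clones, and the line marks equal values; 85 of the 86 are below 0 on B and D in all 3 tissues.

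The reverse choice, on letters B and D, gave 113 clones, of which 86 are among the 101 (76.1% of the 113 and 85.1% of the 101). This overlap is partly built in too. The medians of the 113 on A, C and E were -1.47 (head horn), -1.44 (thoracic horn) and -1.53 (legs), and on B and D, which chose them, -1.84, -1.71 and -1.91. On A, C and E, 99 were called negative for head horn, 99 for thoracic horn and 95 in the legs (limma), where 14.3%, 11.6% and 13.8% of 3504 clones were. In all 3 tissues together 87 of the 113 were called, against 6.68% of the clones. That count was 59 without letter A (background 3.29%), 59 without C (2.99%) and 53 without E (2.63%), where fewer clones of the whole table were called too. On A, C and E, 110 of the 113 were negative in all 3 tissues and 73 were at -1 or less in all 3 (64.6%, where 4.43% of the complete clones were), against 82.6% in the choice on A, C and E. The highest value on A, C and E belonged to OtL002-H08, named after its values were seen, which stood at 2.04 (head horn), 2.79 (thoracic horn) and 1.37 (legs) there and at -2.33, -2.36 and -2.83 on B and D. Without a layout term in these fits, dye bias is not separated from the ratio.

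The closeness of the tissues carried over less clearly than the level. Of the 86 clones chosen on A, C and E, 73 had a difference between tissues under 0.8 on B and D, and of the 113 chosen on B and D, 95 had so on A, C and E. Over all complete clones the share was 80.3% on B and D and 79.0% on A, C and E. Both shares of the chosen clones are near this background, so closeness on the letters not used is no result about these clones. The limits were met on both sets of letters by 61 clones. Over all complete clones, 2.70% met them on A, C and E and 3.55% on B and D.

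The choice was also made with 1 letter left out. Between 86 clones (B left out) and 110 clones (D left out) were then chosen, and 77 to 94 of them are among the 101. The remaining letters also entered the choice of the 101, so this overlap is largely built in. On the 3 arrays of the left-out letter, all values were negative in 101 of 108 clones for A, 85 of 86 for B, 95 of 95 for C, 109 of 110 for D and 100 of 102 for E. All 3 were negative in 28.0% to 32.0% of the complete clones. All 3 were at -1 or less in 59 clones for A, 69 for B, 79 for C, 86 for D and 64 for E, where 3.83% to 5.75% of the complete clones were. The medians on left-out letter E were -1.40 (head horn), -1.58 (thoracic horn) and -1.64 (legs), and those on left-out letter D were -2.13, -1.53 and -2.25. A difference between tissues under 0.8 on the left-out letter was found in 57.4% of the chosen clones for A, 80.2% for B, 62.1% for C, 57.3% for D and 69.6% for E. Over all complete clones the shares were 70.6%, 75.6%, 68.4%, 74.2% and 69.8% in the same order, so the chosen clones lay below them on A, C and D, above on B and near on E. Arrays of 1 letter may share animals, so the 3 values of a letter are not independent.

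The choice averaged both layouts, so the layout term was not part of it. Because 3 arrays are set against 2, the errors of the average and of the layout term still correlate at -0.200 by design, which tilts clones chosen for low values slightly towards positive terms. The term was called in 23 of the 101 clones, where 22.6% of the 3777 clones had a called term, so the number is at the background. Of the 23, 20 were positive (background 9.4%), meaning less negative on A, C and E, and 3 were negative (13.2%). Sizes among the 23 ran from 0.53 to 1.35, and the sign was the same in all 3 tissues in 20 of the 20 and 3 of the 3. A call on 1 term over all 3 tissues favours a shared sign, so nothing is read from it. Over the 101 clones the median term was 0.24, and 68 terms were positive. In the 32 clones chosen by the mirrored limits (1 or more in each tissue), the median was -0.60 and 9 terms were called, all negative. Ratios in both sets thus lay nearer 0 on A, C and E in the median clone.

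With the letter as a random block, 3 of the 101 clones had a called layout term (background 5.32%), and all 3 were among the 23. The layout varies only between letters. The fit without the block counts arrays of the same letter as independent, so its adjusted p for the layout tends to be too small. The layout counts were 12 without letter B (background 13.0%) and 12 without D (12.2%), which leave 1 array per tissue in their layout. They were 17 without A (15.9%), 28 without C (19.7%) and 23 without E (23.8%). With each array scaled to the same spread, an alternative chosen after the data were seen, 23 were called (background 24.2%), 20 of them positive. Dye layout and the pupae behind the letters cannot be told apart, since each letter has 1 layout in all tissues. A test of whether the layout term differs between tissues called none of the 101 clones in limma (0.0% of 3725 clones). At an unadjusted p under 0.05 it found 0 of the 101, against 1.72% of the 3725. Among the 3182 complete clones, to which all 101 belong, the share was 0.597%, so the count is near that background.

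**Figure D4:**
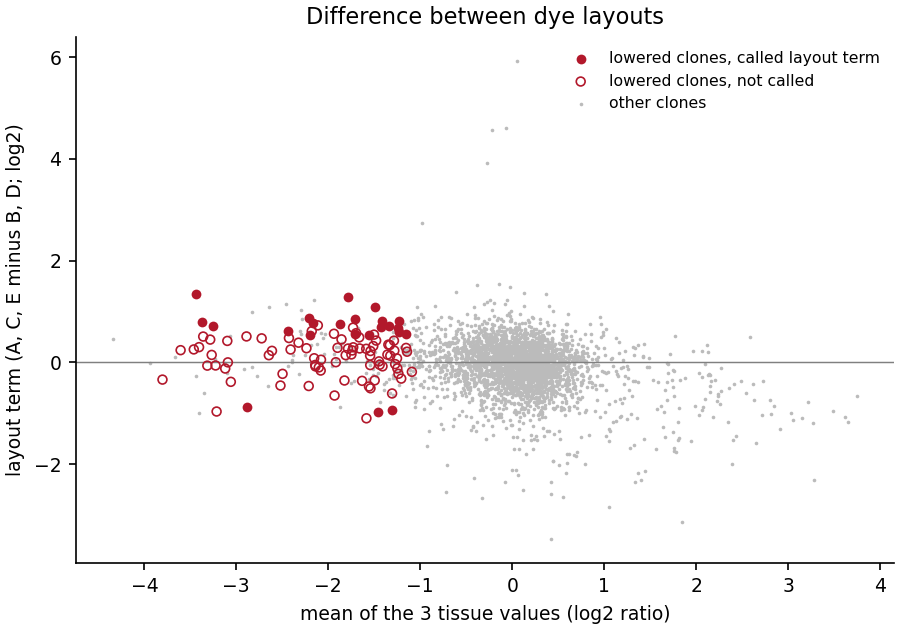
Layout term (letters A, C and E minus letters B and D, log2) against the mean of the 3 tissue values (log2 ratio), for the 101 lowered clones in red and the other complete clones in grey. Filled red points are the 23 terms called without the letter as a block, of which 20 are above 0.

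Among the called terms, that of OtP007-H10 was 1.08 ± 0.19 (SE, adjusted p = 0.00183 by limma, and 0.0444 with the random block). Its arrays A, C and E read -0.77, -0.85 and -0.82 in head horn, and its arrays B and D read -2.21 and -2.14. In legs they read -0.03, -0.75 and -1.14 on A, C and E, and -1.53 and -2.19 on B and D. Letters of the layouts did not overlap in any tissue for this clone, with thoracic horn at -1.53, -1.07 and -1.64 on A, C and E and -1.91 and -2.24 on B and D.

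The most even clone OtP004-C06 also had a called term, 0.60 ± 0.10 (SE, adjusted p = 0.00166 by limma, 0.0217 with the random block). OtL013-C02 was the third clone called with the block, at 0.85 (adjusted p = 0.00147 by limma, 0.0289 with the block), and is named after its values were seen. The terms of OtP007-F12 (1.35 ± 0.44, SE, adjusted p = 0.0423 by limma) and OtP007-B04 (1.29 ± 0.28, SE, 0.00665) were the largest but were not called with the block (0.179 and 0.0588). On the negative side, OtP018-B05 had -0.98 ± 0.30 (SE, adjusted p = 0.0357 by limma, 0.188 with the block). OtL010-D10 had -1.10 ± 0.54 and OtL006-H03 had -0.97 ± 0.36 (SE), and neither was called (adjusted p = 0.159 and 0.0696, limma). OtL013-C03 (0.79 ± 0.19), OtP001-E09 (0.55 ± 0.12) and OtL013-B07 (0.62 ± 0.12, SE) were called without the block only, with adjusted p of 0.141, 0.0781 and 0.0637 under it (limma).

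The choice did not use differences between letters of the same layout. Where arrays differ in scale, such differences still grow with the level, which the choice set. A moderated F test in limma over A, C and E and over B and D, with tissue in the model, called 28 of the 101 clones, where 20.8% of 3663 clones were called. With each array scaled to the same spread the count was 9 (background 13.3%), and all 9 were among the 28. Among the 32 raised clones of the mirrored limits, 21 were called without scaling. The 28 calls are therefore not read as a result about the 101 clones. The median absolute deviation of the complete clones ran from 0.47 to 0.71 between arrays, which is the spread that the scaling evened out. The count among the 101 clones was 18 without letter A (background 12.8%), 10 without C (10.5%) and 15 without E (11.0%). It was 28 without B (14.4%) and 27 without D (11.9%). Among the 28 clones, C was the lowest letter in 19, D in 8 and B in 1, and E was the highest in 14, A in 9, B in 4 and D in 1. Over all 101, the median of the letter means was -1.68 for A, -1.89 for B, -1.95 for C, -2.06 for D and -1.61 for E.

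OtL006-H03 had the largest F among the 101 clones, 52.8 (adjusted p = 6.26e-04 by limma, 0.0366 with scaled arrays). On letter C it read -4.79 (head horn), -4.04 (thoracic horn) and -4.85 (legs), and on letter B -2.04, -2.06 and -2.27. Letters A, D and E lay between, from -3.80 to -2.73, so that no tissue of letter B or C overlapped them. The tissues of a letter were close to each other while letters lay up to 2.75 apart within head horn.

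OtL019-C03 (F = 30.8, adjusted p = 0.00173 by limma, 0.00936 with scaled arrays) was lowest on D, at -2.21, -2.14 and -2.16 in head horn, thoracic horn and legs. On A it read -0.80, -0.89 and -0.53, the highest letter in each tissue. OtL017-D03 (F = 28.4, adjusted p = 0.00196 by limma, 0.0153 with scaled arrays) was lowest on C, at -2.06, -1.91 and -2.16, and read -0.48, -0.77 and -0.66 on B. In each of these clones the tissue values differed by less than 0.5, while letters differed by more than 1 on the log2 scale.

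**Figure D5:**
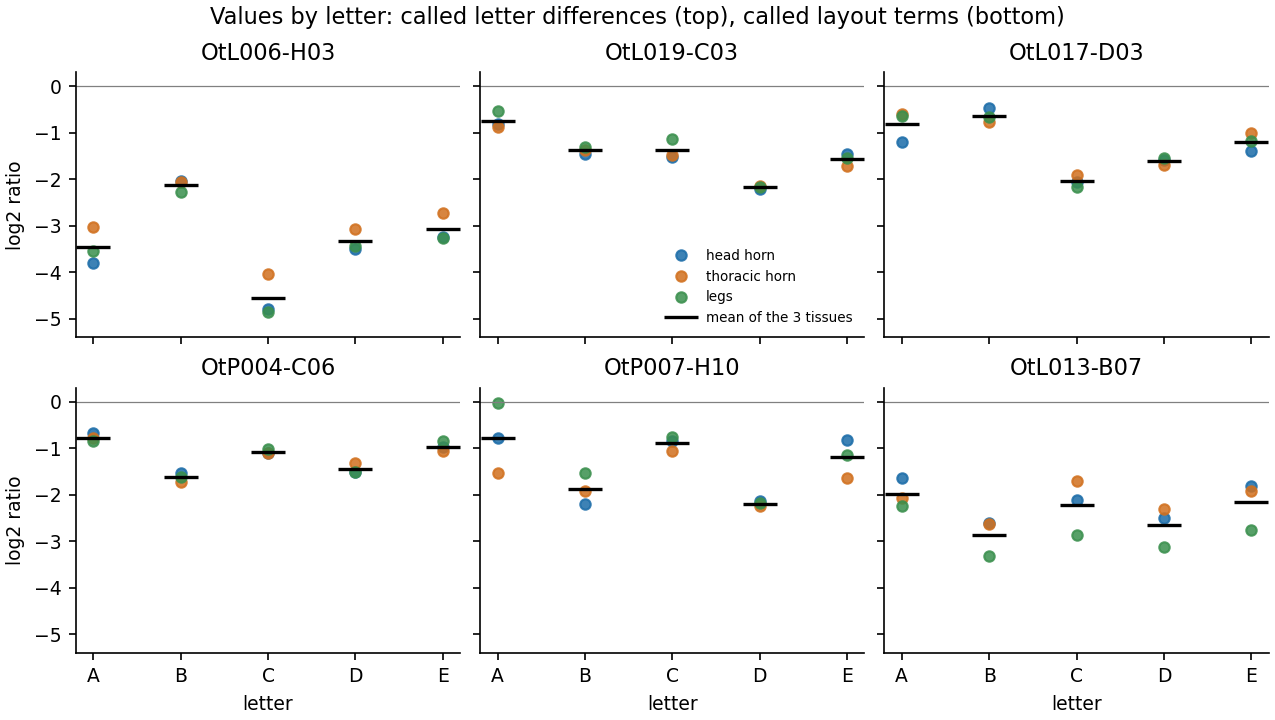
Log2 ratio by letter for 3 clones with the largest F between letters (top) and 3 clones with a called layout term (bottom). Each tissue has 1 point, and a bar marks the mean of the tissues. The layout terms were called without the letter as a block, and that of OtL013-B07 was not called with it. OtL006-H03 lies at -4.04 or below on C and at -2.04 to -2.27 on B, and OtP004-C06 is lowest on B and D.

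The residual SD of the fit had a median of 0.43 over the 101 clones, against 0.31 over the complete clones and 0.49 over the 45 lowered clones with a wider difference between tissues. It was smallest in OtP004-C06 (0.16), OtP001-E09 (0.20) and OtL013-B07 (0.21). It was largest in OtP017-E05 (1.46), OtL010-D10 (1.12) and OtL005-H06 (0.94). OtP017-E05 read -3.19, -2.37, -7.36, -3.37 and -1.87 on arrays A to E of head horn, -1.66, -2.69, -4.36, -2.73 and -2.39 of thoracic horn, and -2.16, -2.73, -3.61, -3.31 and -2.67 of legs. Its letter C was the lowest in all 3 tissues, and the array of head horn lay 3.98 below the next.

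OtL010-D10 had a tissue value of -1.75 in head horn, where arrays A and C stood at -3.11 and -3.98 and arrays B, D and E at -0.45, -1.73 and -0.15. In thoracic horn it read -1.98, -0.65, -2.73, -1.14 and -0.85 on A to E, and in legs -2.10, -0.48, -3.19, -1.76 and -1.13. The order of the letters was nearly the same in each tissue, with C lowest and A next (F = 19.5, adjusted p = 0.00582 by limma, 0.0132 with scaled arrays). OtL005-H06 was highest on E, at 0.36 (head horn), 0.00 (thoracic horn) and -1.08 (legs), and its other letters lay between -2.53 and -0.85. For such clones the average over 5 letters covers values that differ by more than 2 on the log2 scale.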

How the data were processed

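Two-colour arrays were made from head horn, thoracic horn and legs, each hybridised with dorsal abdominal epithelium. The deposited values were log ratios per clone and array, taken as log2 because limma works on that scale. They were normalized by the authors with limma, per the submitters' processing notes. Log base, direction, background correction, normalization method and the filter behind 1799 empty values are not stated in the sources used here. Scanner intensities were not used here, so signal over background is unknown, and the number of arrays limits the precision.

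Clones with at least 3 arrays per tissue and both layouts were fitted with limma 3.58.1 in R 4.3.3. The tissue values and the coefficients of this fit differ by at most 0.09. P-values measure the spread between arrays. Figures used matplotlib 3.10.9. Members, rules and tests were chosen with earlier results of these data known. Clones named individually were taken by rank: the 8 lowest and 3 highest means, the smallest and largest differences between tissues, those just outside each limit, and the extremes of layout term, F between letters, residual SD and range.

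Letters A to E occur in each tissue. The correlation between tissues of same-letter deviations, taken within tissue and layout, was 0.341 to 0.480 in 12 distinct pairs (B and D, as the only letters of their layout, give the same values), so the values pair the letters. The labels give shared animals for the 2 samples of an array only. The letter stayed out of the main model and was tried as a random block (consensus correlation 0.392). The main model thus counts arrays of the same letter as independent. Its adjusted p tends to be too small for the layout term, which varies only between letters. For differences between tissues, which lie within letters, it tends to be too large. Alternatives were other means, centring, limits, left-out letters, single layouts and scaled arrays.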

Additional observations from a re-analysis of the deposited data

Results flagged for a closer look

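Among 84 sets of 5 arrays (the median of the lowered clones and 27 individually named members, in 3 tissues), 4 had 1 array standing apart beyond Dixon's limit for 5 values. Chance gives about 1 in 20 in sets not picked by their values, but some of these members were named for a wide range, a large residual SD or a large F between letters, so that rate is not theirs. OtL018-C04 stood at -2.20 on letter C of head horn and at -1.72 on letter C of legs, below its other letters in both. OtP017-E05 stood at -7.36 on letter C of head horn. OtP003-C01 stood at -1.63 on letter E of thoracic horn, above its other letters there. Letter C was the one that stood apart in 3 of the 4.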

How the results depend on the processing

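The number of lowered clones stayed between 74 (difference under 0.6) and 116 (difference under 1.0) over 14 alternatives, with 109 when clones with at least 3 arrays per tissue entered, which kept the 101, and 95 of the 101 shared when arrays were centred. The members' tissue medians ran from -1.88 to -1.67 (head horn), -1.87 to -1.70 (thoracic horn) and -1.97 to -1.82 (legs) under centring and left-out letters. The count of called layout terms (23) was 3 with the letter as a replicate block and 12 to 28 without single letters. The count of letter differences (28) was 9 with scaled arrays (chosen after the data were seen) and 10 to 28 without single letters, where fewer arrays are fitted. Clones chosen on B and D and called negative in all 3 tissues on A, C and E (87) were 53 to 59 without single letters. The replicate block changed neither within-layout count by over 1.5 times. Of the 27 layout terms of individually named members, most were not called in the main fit. Of the called ones, 6 lost their call under the block, and only OtP004-C06 and OtP007-H10 kept it. Leaving out B or D from the fit on those letters leaves no residual degrees of freedom and gave no value. The causes were not tested. Without intensities, how far low signal limits the lowest ratios is unknown.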

Other observations

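The clone IDs give a prefix, a plate and a well. Of the 101 clones, 59 carried the prefix OtL (58.4%) and 42 the prefix OtP, where 53.8% of the 3182 complete clones carried OtL. They came from 38 of 40 plates, with at most 6 on a plate (OtL013 and OtP007). Of their wells, 40 lay in rows C and D, with 4.63% and 5.15% of the complete clones in these rows, against 1.97% to 3.62% in the other rows. There were 9 pairs in neighbouring wells, a count that was not made for other clones, so nothing is read from it. These are counts with no test, and the place of a clone on the array is not known here.

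Several clones had nearly the same values on all 15 arrays, and they are named here after their values were seen. Over the 5050 pairs of the 101 clones the root mean square difference over the arrays had a median of 0.96, and it was under 0.3 in 18 pairs, 1 of them from the same plate. The correlation r over the 15 arrays had a median of 0.25 over all pairs, was over 0.9 in 7 and below 0 in 1288. The closest pair was OtP014-G06 and OtP018-D06, at 0.20 with r = 0.90 over 15 arrays. OtL002-C10 and OtL016-C01, both with legs below thoracic horn, were next at 0.23 (r = 0.88). OtL004-H02 and OtP008-E05, from the deepest part of the group, differed by 0.24 (r = 0.93), and OtP003-D12 and OtP008-E05 by 0.29 (r = 0.94). The arrays are shared by all clones, so such correlations also hold the spread of whole arrays. Whether such clones come from 1 transcript cannot be read from the files, so the number of genes behind the 101 clones is unknown.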
